A study of Mus musculus with 18 samples.

Results

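Shoc2, Adat2, Bmp2k, Ocel1, Zfp868 and Crnkl1 are 6 mouse genes of signalling, tRNA editing, vesicle traffic and splicing whose signals were lower in small-intestinal crypts in the groups labelled for loss of the E2f activators. They are 6 of the 18193 genes measured with a single symbol and are read by 10 of 34945 such probe sets. They were chosen on their measured differences from control, as genes lower in E2f TKO and in E2f/Myc QKO crypts, in these same arrays. Their differences in those comparisons are therefore given as a description, with no test. A gene is represented by the log2 signal of whichever of its probe sets has the highest mean, and the other probe sets are given beside it.

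RNA came from crypts of mice aged 2 months, taken 2 days after deletion, with 1 array for each of 18 samples. Control crypts gave 4 arrays. The E2f TKO group, labelled as lacking E2f1, E2f2 and E2f3, gave 5 arrays, the group labelled for Myc deletion (Myc KO) 4, and the group labelled for deletion of all of these genes (E2f/Myc QKO, called QKO here) 5. Deletion used Ah-cre, in which the Cyp1a1 promoter drives Cre once a ligand activates the aryl hydrocarbon receptor in gut epithelium and in liver. The labels do not give the alleles and Cre status of the control mice, the strain, or whether any E2f allele was already absent from the germline. Nor do they say that each array is a separate mouse, so p-values measure only the spread between these arrays.

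E2F1, E2F2 and E2F3 are transcription factors that bind DNA with DP partners, are held in check by the retinoblastoma family, and are known for switching on genes of DNA replication as cells enter S phase. In the crypt, stem and progenitor cells divide continuously and supply the villus. MYC is a transcription factor of growth and ribosome production that binds E-box sequences.

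The products of the 6 genes have other known roles. SHOC2 is a leucine-rich scaffold that, with MRAS and a catalytic subunit of protein phosphatase 1, removes an inhibitory phosphate from RAF kinases and so raises RAS-ERK signalling. ADAT2 is the catalytic subunit of the enzyme that, with ADAT3, turns adenosine into inosine at the wobble position of tRNAs. BMP2K belongs to the Numb-associated kinases, whose relative AAK1 phosphorylates the clathrin adaptor AP2. OCEL1 carries a domain shared by the tight-junction protein occludin and ELL elongation factors. ZFP868 is a zinc finger protein. CRNKL1, the mammalian crooked neck protein, is a spliceosome component found with the Prp19 complex.

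The genes named in the labels were checked first. Myc, on its single probe set, read 9.69 to 10.30 in control, 9.99 to 10.66 in E2f TKO, 8.11 to 8.40 in Myc KO and 7.94 to 8.52 in QKO arrays, so that the groups labelled for Myc deletion lay wholly below the others. E2f1 and the brighter E2f2 probe set did not fall in this way. The E2f1 probe set with the highest mean read 7.70 to 8.05 in control, 7.48 to 7.84 in E2f TKO and 7.73 to 8.27 in QKO arrays, and another read 7.10 to 7.47, 7.55 to 7.82 and 7.82 to 8.25, higher in both E2f groups than in control. E2f2 on its brighter probe set read 8.91 to 9.28 in control, 8.61 to 9.16 in E2f TKO and 9.18 to 9.41 in QKO arrays. Its dimmer probe set read 8.164 to 8.206 in control and 7.764 to 8.155 in QKO arrays, so every QKO array lay below every control. On that probe set E2f TKO arrays, at 7.378 to 8.240, and Myc KO arrays, at 7.886 to 8.302, overlapped control. The sources used here do not say whether these probes lie in the deleted parts, so they do not check the deletion. The brighter E2f3 probe set read 8.62, 8.73, 8.81 and 8.96 in control arrays, and 8.17, 8.09, 8.14, 8.19 and 8.11 in QKO arrays 1 to 5. Its Myc KO values, 8.44 to 8.60, also lay below every control, so on this probe set low E2f3 was not particular to the E2f labels. The dimmer E2f3 probe set disagreed, with Myc KO arrays at 6.69 to 6.89 against 6.65 to 6.83 in control. On it E2f TKO arrays read 6.18 to 6.90 and QKO arrays 6.18 to 6.71, and both groups overlapped control. In the libraries labelled E2f TKO 1 to 5 the brighter probe set read 8.22, 9.35, 8.39, 8.08 and 9.10. Those labelled 2 and 5 thus lay above every control on it. On the dimmer one the library labelled 2 read 6.71, within the control range, and that labelled 5 read 6.90, above it. The same libraries had Cyp1a1, the gene whose promoter drives the Cre, at 5.05 and 4.91, against 12.66 to 14.09 in the other 16 arrays. The members' differences, the marker counts and the counts of partner and neighbouring genes are therefore also given without these libraries. Crypt epithelium was present throughout, with Epcam at 13.83 to 14.23, Olfm4 at 12.49 to 13.43 and Lyz1 at 14.42 to 14.70, while Col1a1 (5.17 to 6.15) and Pecam1 (4.54 to 5.07) lay below or at the array medians of 6.14 to 6.26. The T cell gene Cd3e lay above these medians, at 7.52 to 8.46. The mean of the T cell markers was 7.17 to 8.63 in control arrays and was lowest in the libraries labelled E2f TKO 2 and 5. The part of T cells in the members' differences was not tested.

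The genes lie on 5 chromosomes of the mouse genome (build GRCm38.p6, RefSeq). Shoc2 is on chromosome 19, Adat2 on 10, Bmp2k on 5 and Crnkl1 on 2. Ocel1 and Zfp868 are both on chromosome 8, 1.75 Mb apart. Crnkl1 is on the same chromosome as E2f1, at 8.63 Mb from it, and no other member shares a chromosome with E2f1, E2f2 or E2f3.

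The promoters of the genes were read for E2F-like letters, since the members were low together in the groups labelled for E2f deletion. The window ran from 250 bases before to 50 bases after each of the 8 annotated starts. The letters TTTCCCGC, TTTCGCGC, TTTGCCGC and TTTGGCGC were searched on both strands. They were in 0 of the 6 members and in 2.6% of 27025 genes (2.26% of 32851 RefSeq promoters). Their last 7 letters (TTCCCGC, or TTCGCGC, or TTGCCGC, or TTGGCGC) were in 1 of 6 members against 10.9% of 27025 genes. The E-box CACGTG was in 0 of 6 members and in 8.09% of genes. The match was in Shoc2, with its first base at position -190 from the second start, on the strand opposite to the gene. The upstream 250 bases of 4 members and of Cdkn2c, the gene most like Ocel1 across the arrays, are shown 5′ to 3′ on the gene's strand to set that match beside starts that lack one. Capitals mark a 7-letter match, and sequences are from RefSeq. The Shoc2 bases are chr19:53944626-53944875 (plus strand), those of Ocel1 chr8:71371048-71371297 (plus), of Zfp868 chr8:69625549-69625798 (minus), of Crnkl1 chr2:145934701-145934950 (minus) and of Cdkn2c chr4:109666757-109667006 (minus).
Shoc2, second start: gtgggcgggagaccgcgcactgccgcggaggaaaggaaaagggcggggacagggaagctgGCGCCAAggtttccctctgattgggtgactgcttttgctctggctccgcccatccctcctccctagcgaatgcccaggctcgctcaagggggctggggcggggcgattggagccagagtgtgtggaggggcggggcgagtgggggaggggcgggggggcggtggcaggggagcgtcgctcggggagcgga
Ocel1: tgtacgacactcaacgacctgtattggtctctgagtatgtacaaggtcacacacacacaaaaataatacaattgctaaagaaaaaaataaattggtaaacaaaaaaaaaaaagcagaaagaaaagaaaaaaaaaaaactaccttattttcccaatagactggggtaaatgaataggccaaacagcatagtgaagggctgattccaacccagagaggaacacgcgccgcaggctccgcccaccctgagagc
Zfp868, first start: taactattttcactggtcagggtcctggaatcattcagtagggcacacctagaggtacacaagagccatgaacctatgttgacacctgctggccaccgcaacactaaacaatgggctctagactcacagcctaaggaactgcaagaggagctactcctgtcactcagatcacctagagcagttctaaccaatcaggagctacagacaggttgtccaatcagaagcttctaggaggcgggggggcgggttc
Crnkl1: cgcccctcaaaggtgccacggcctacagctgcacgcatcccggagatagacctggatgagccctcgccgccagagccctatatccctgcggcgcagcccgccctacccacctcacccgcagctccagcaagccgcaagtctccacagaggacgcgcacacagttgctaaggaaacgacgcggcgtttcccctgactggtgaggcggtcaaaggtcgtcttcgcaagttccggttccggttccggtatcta
Cdkn2c, first start: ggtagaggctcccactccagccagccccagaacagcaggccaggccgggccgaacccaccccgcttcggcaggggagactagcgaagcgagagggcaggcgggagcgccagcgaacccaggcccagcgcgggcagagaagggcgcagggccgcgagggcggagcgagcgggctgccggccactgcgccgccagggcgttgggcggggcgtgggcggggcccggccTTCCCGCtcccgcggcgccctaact
The Shoc2 capitals are the reverse complement of TTGGCGC, and those of Cdkn2c are TTCCCGC, whose first base is at position -25. The windows of the members differed in base composition. Guanine and cytosine made up 46.0% of the Ocel1 window and 83.3% of the Bmp2k window, against a median of 52.7% over all promoters. A match is a description of letters only, and none was tested for binding here.

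Shoc2, the RAF-activating scaffold, had log2 signals of 9.89, 10.03, 10.21 and 10.01 in control crypts and of 8.63, 8.58, 8.99, 8.76 and 8.46 in E2f TKO crypts. In Myc KO crypts it read 9.16, 9.32, 9.10 and 9.53, and in QKO crypts 8.08, 8.32, 8.27, 8.47 and 8.56. Every E2f TKO and QKO array lay below every Myc KO array, and every Myc KO array below every control. The mean difference from control was -1.35 ± 0.12 (SE of the limma fit) in E2f TKO, which is 39.2% of the control level, and -1.70 ± 0.12 in QKO, or 30.9%.

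The other Shoc2 probe set, 1425845_a_at, gave 8.95, 8.95, 9.02 and 9.003 in control arrays and 7.95, 7.84, 7.98, 7.96 and 7.84 in E2f TKO arrays. Its QKO values were 7.83, 8.11, 8.07, 7.85 and 8.15, and its Myc KO values 9.03, 8.95, 9.28 and 9.11. The E2f TKO and QKO arrays were again all below the controls, but the Myc KO arrays overlapped them, so the 2 probe sets disagreed on Myc KO.

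Adat2, the tRNA deaminase subunit, read 8.9997, 9.36, 8.98 and 9.12 in control crypts, and 7.55, 7.85, 7.95, 8.03 and 8.15 in E2f TKO crypts. QKO arrays gave 7.78, 7.58, 7.75, 7.55 and 7.65, and Myc KO arrays 8.81, 8.91, 8.98 and 8.89. Low E2f TKO and QKO values were separated by a wide gap from high control and Myc KO values. The differences from control were -1.21 ± 0.11 in E2f TKO (43.3% of control) and -1.45 ± 0.11 in QKO (36.5%). A single probe set reads this gene.

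Ocel1, of the occludin and ELL domain family, had the largest E2f TKO difference among the 6. Control arrays read 9.39, 9.38, 9.33 and 9.20, and E2f TKO arrays 7.58, 7.39, 7.42, 7.30 and 7.39. Myc KO arrays read 9.43, 9.33, 9.44 and 9.24, within or just above the control range. QKO arrays read 7.78, 7.67, 7.65, 8.499 and 7.41, all below control, with QKO 4 standing above the rest. The differences were -1.91 ± 0.15 in E2f TKO, a fall to 26.6% of control, and -1.52 ± 0.15 in QKO, or 34.9%. Ocel1 ranked 21st from the lowest of all 18193 genes in E2f TKO.

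Zfp868, the zinc finger gene, had a mean signal at the 48th percentile of all genes. Its control signals were 7.54, 7.83, 7.75 and 7.91, and its E2f TKO signals 6.79, 6.84, 6.81, 6.65 and 6.74. Its QKO signals were 6.401, 6.28, 6.46, 6.89 and 6.49, and its Myc KO signals 7.46, 7.37, 7.46 and 7.45. Myc KO arrays thus lay between the low E2f TKO and QKO arrays and the controls, with no overlap on either side. The differences were -0.99 ± 0.10 in E2f TKO and -1.25 ± 0.10 in QKO. The low values lie close to the array medians and, with no detection calls used, are not shown to be above background.

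Bmp2k, the Numb-associated kinase gene, is read by 3 probe sets. The one that represents the gene, 1458370_at, gave 9.88, 10.10, 10.005 and 9.92 in control, 9.50, 9.49, 9.21, 9.20 and 9.14 in E2f TKO, 9.65, 9.66, 9.74 and 9.71 in Myc KO, and 8.88, 8.65, 8.67, 8.73 and 8.82 in QKO arrays. The 4 groups did not overlap, in the order control, Myc KO, E2f TKO and QKO from high to low. Its differences from control were -0.67 ± 0.08 in E2f TKO and -1.23 ± 0.08 in QKO.

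The other Bmp2k probe sets differed in size. Probe set 1421103_at read 8.12, 8.22, 8.28 and 8.27 in control and 6.60, 6.04, 6.16, 6.46 and 6.39 in E2f TKO arrays, a difference of -1.90 ± 0.13. In QKO arrays it read 6.43, 5.88, 6.02, 6.14 and 6.21, a difference of -2.09 ± 0.13. These low values are at the level of the array medians. Probe set 1437419_at read 8.67 to 8.98 in control, 8.10 to 8.64 in E2f TKO, 8.44 to 8.63 in Myc KO and 7.76 to 8.14 in QKO arrays. Its differences were the smallest, -0.49 ± 0.11 in E2f TKO and -0.90 ± 0.11 in QKO. The sign was the same on all 3, while the E2f TKO difference ranged from -0.49 to -1.90.

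Crnkl1, the splicing factor, had the smallest difference among the 6. Probe set 1420850_at read 9.02, 9.02, 9.05 and 9.13 in control arrays and 8.58, 8.63, 8.56, 8.62 and 8.69 in E2f TKO arrays. It read 8.92, 8.92, 8.96 and 9.001 in Myc KO and 8.33, 8.30, 8.42, 8.47 and 8.497 in QKO arrays. The groups kept the same order without overlap, though Myc KO and control were close. The differences were -0.44 ± 0.06 in E2f TKO and -0.65 ± 0.06 in QKO, or 73.7% and 63.7% of control. The other probe set, 1420849_at, read 6.99 to 7.28 in control, 5.95 to 6.07 in E2f TKO and 5.52 to 6.13 in QKO arrays, with differences of -1.16 ± 0.11 and -1.31 ± 0.11 and low values close to the array medians.

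**Figure D1:**
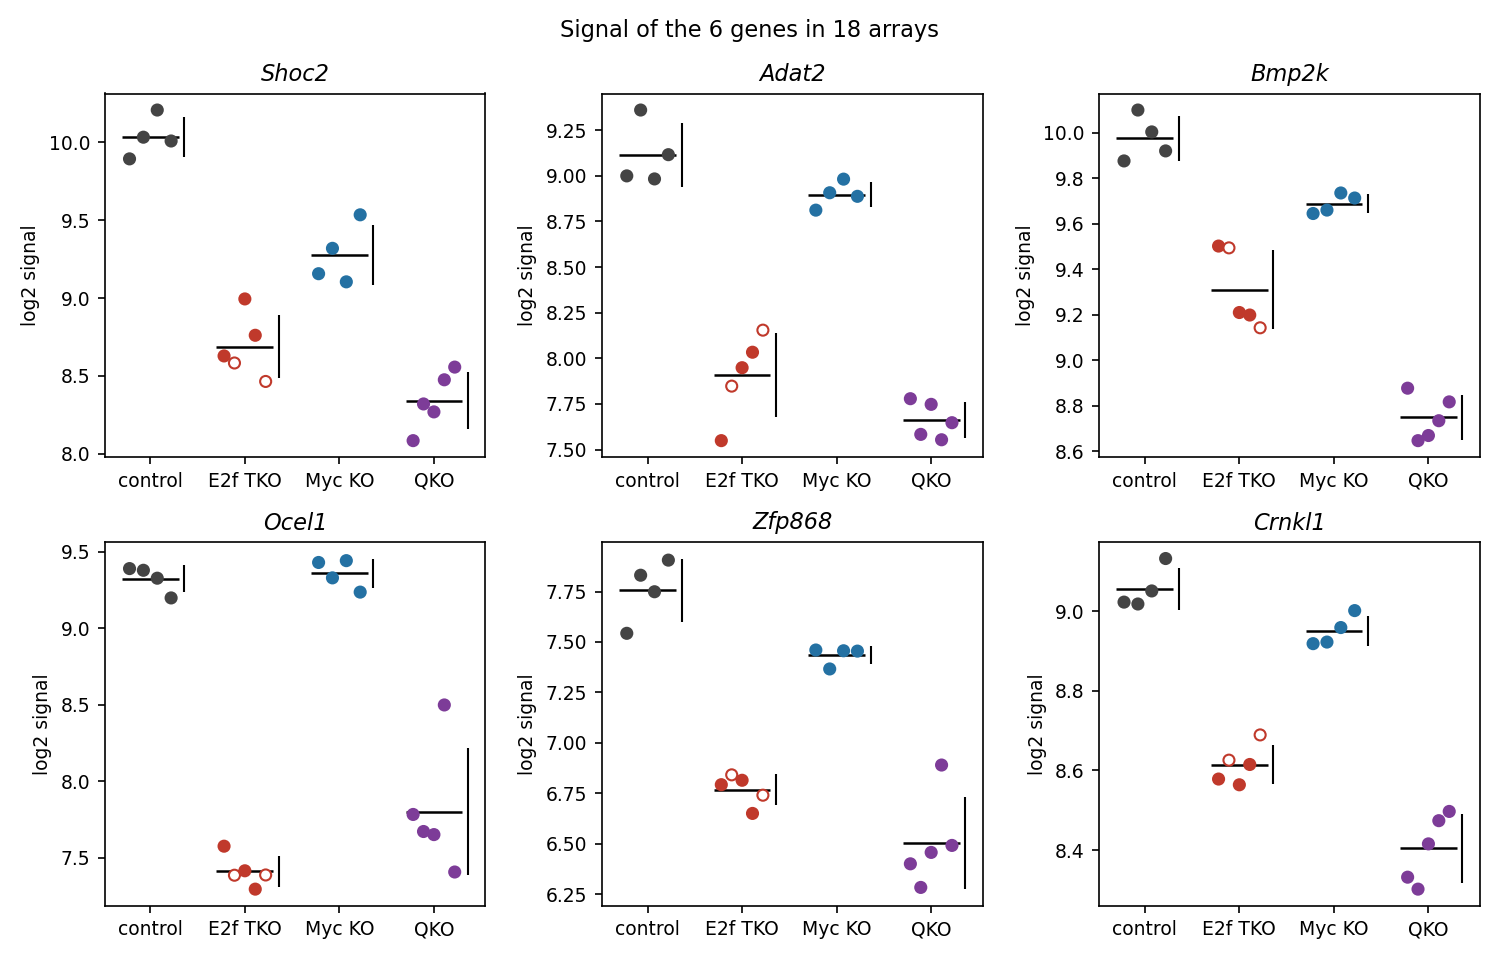
Log2 signal (vertical axis) of each of the 6 genes in the 18 arrays, grouped as control, E2f TKO, Myc KO and QKO, with bars for the mean and SD and open red circles for the libraries labelled E2f TKO 2 and 5. All E2f TKO and QKO points lie below all control points in each panel, and Myc KO points lie near or a little below control except for Shoc2, where they fall about midway.

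**Figure D2:**
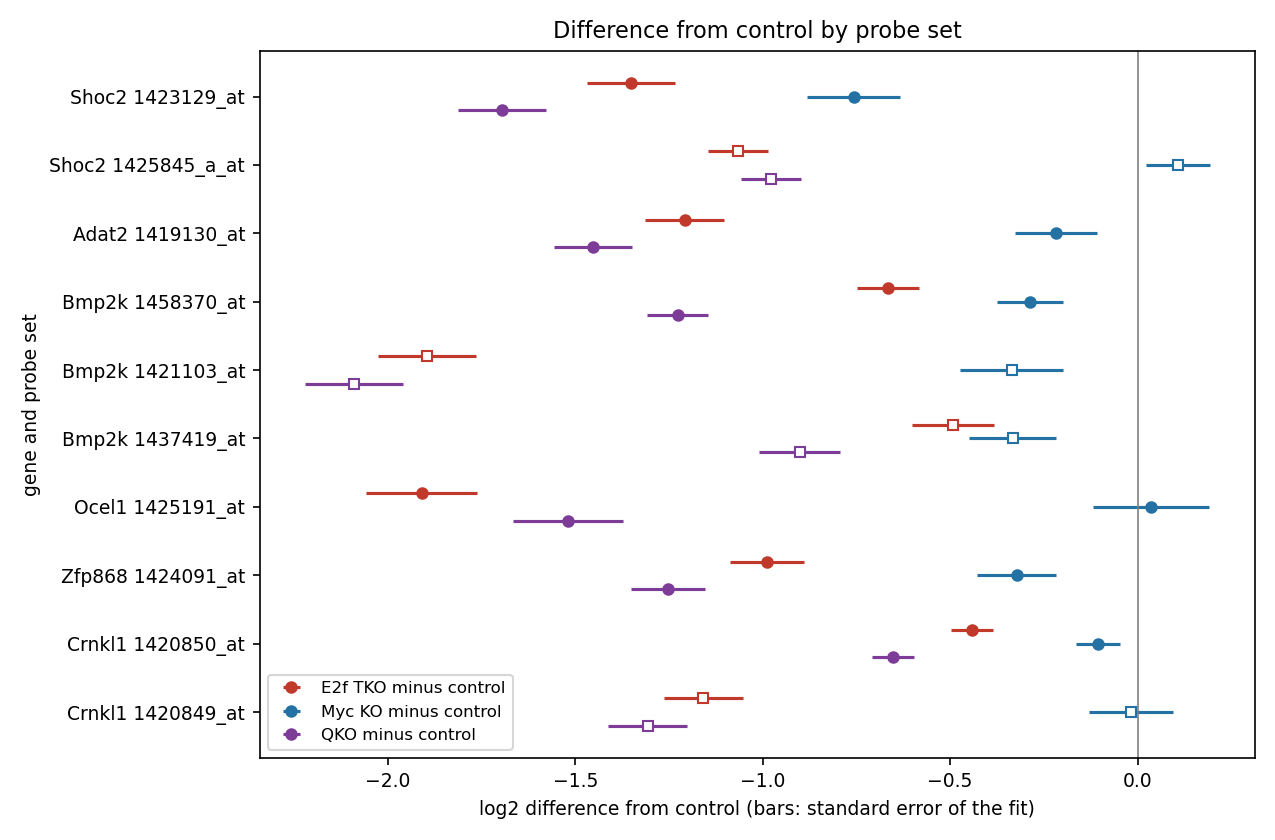
Log2 difference from control, with the SE of the limma fit, for the 10 probe sets of the 6 genes in E2f TKO, Myc KO and QKO, where filled circles are the probe set that gives the gene its value and open squares the others. Probe sets of a gene agree in sign in E2f TKO and QKO, while for Bmp2k the E2f TKO difference runs from -0.49 to -1.90.

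In each of the 6 genes every E2f TKO and QKO array lay below every control array. Of all 18193 genes, 258 did so (1.42%), and 176 (0.967%) were lower in both comparisons at an adjusted p under 0.05 (limma, Benjamini-Hochberg). The members were picked for this, so nothing is read from it. Near the edge of the choice stood Crnkl1, ranked 372nd from the lowest in E2f TKO and 622nd in QKO, while in E2f TKO the other members ranked between 21st and 174th. In a bulk sample, fewer cells of a type and less RNA per cell cannot be told apart.

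The libraries labelled E2f TKO 2 and 5 read like the other E2f TKO libraries in the members. Averaged over the 6 genes, the deviation from the control mean was -1.11, -1.08, -1.05, -1.12 and -1.11 in E2f TKO 1 to 5. In QKO 1 to 5 it was -1.33, -1.41, -1.34, -1.11 and -1.31, and in Myc KO 1 to 4 it was -0.31, -0.29, -0.26 and -0.24. These libraries were part of the group mean used to choose the members. Without them the E2f TKO differences were -1.24 for Shoc2, -1.27 for Adat2, -0.67 for Bmp2k, -1.89 for Ocel1, -1.004 for Zfp868 and -0.47 for Crnkl1.

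**Figure D3:**
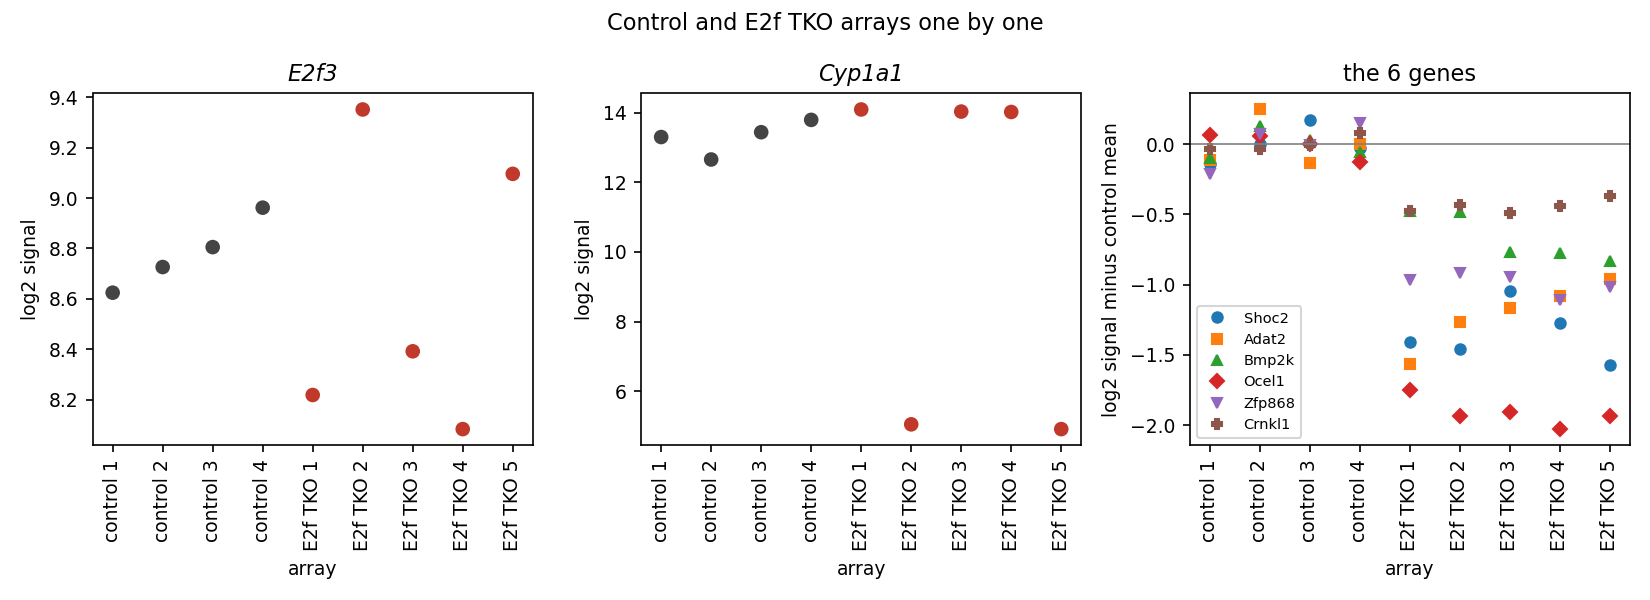
Log2 signal of E2f3 (left) and Cyp1a1 (middle) and the log2 deviation of each member from the control mean (right), for each control and E2f TKO array along the horizontal axis. E2f3 is shown on its brighter probe set only. The libraries labelled E2f TKO 2 and 5 stand apart in the left and middle panels, with Cyp1a1 at 5.05 and 4.91, and not on the right, where their mean deviations are -1.08 and -1.11.

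Enteroendocrine and tuft cell markers were higher in some groups. Of 7 enteroendocrine markers, 2 were higher in E2f TKO, 2 in Myc KO and 5 in QKO, and of 5 tuft cell markers 1 was higher in Myc KO and 4 in QKO (limma adjusted p under 0.05), against 2.90%, 8.31% and 26.9% of all genes called in E2f TKO, Myc KO and QKO. No tuft cell marker passed in E2f TKO, and 0 of 7 goblet and 0 of 5 Paneth cell markers passed in any group, with 1 of each at an unadjusted p under 0.05 in QKO and none in the others. Without the libraries labelled E2f TKO 2 and 5 the enteroendocrine count in E2f TKO was again 2, that in QKO 6, and 1 goblet marker passed in QKO. The mean log2 signal of the enteroendocrine markers was 8.95 to 9.33 in control, 9.54 to 9.69 in E2f TKO, 9.43 to 9.70 in Myc KO and 9.77 to 10.03 in QKO arrays. That of the tuft cell markers was 6.41 to 6.48 in control, 6.42 to 6.69 in E2f TKO, 6.59 to 6.68 in Myc KO and 6.71 to 7.03 in QKO arrays. The 6 general epithelial markers averaged 12.48 to 12.63 in control, 12.53 to 12.80 in E2f TKO, 12.56 to 12.61 in Myc KO and 12.20 to 12.49 in QKO arrays. Of them Cdh1, which encodes E-cadherin, fell by 0.39 in Myc KO (adjusted p = 0.0327) and by 0.41 in QKO (0.00678). The part of these markers in the members' differences was not tested.

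Loss of Myc alone is a comparison the choice of members did not use, although the control arrays are the same. Shoc2 and Bmp2k were lower in Myc KO crypts, Ocel1 read as in control, and Adat2, Zfp868 and Crnkl1 were lower by amounts that did not pass. In all, 2 of 6 members passed at an adjusted p under 0.05 (limma, Benjamini-Hochberg over 18193 genes), both lower, against 4.72% of all genes called lower and 8.31% called in either direction. Shoc2 fell by 0.76 ± 0.12 on the log2 scale (adjusted p = 0.00178, n = 4 and 4), to 59.1% of control. Bmp2k fell by 0.29 ± 0.09 (adjusted p = 0.0494). The Bmp2k call rested on single arrays, since leaving out any control or Myc KO array, E2f TKO 3 or 4, or any of QKO 2 to 5 took the adjusted p above 0.05, and over all alternatives that lost the call it was 0.0510 to 0.141.

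The Shoc2 call belongs to 1 of its 2 probe sets. Probe set 1425845_a_at differed by 0.11 ± 0.08 in Myc KO (95% interval -0.07 to 0.29, adjusted p = 0.455 over all probe sets), an interval that leaves out a fall of the size seen on the other. The Bmp2k differences on 1421103_at and 1437419_at were -0.34 ± 0.14 (adjusted p = 0.13) and -0.33 ± 0.12 (0.0706), and that of Crnkl1 on 1420849_at was -0.02 ± 0.11 (0.941). For Ocel1 the Myc KO difference was 0.04 ± 0.16 (interval -0.29 to 0.36, adjusted p = 0.918). For Adat2 it was -0.22 ± 0.11 (interval -0.45 to 0.01, adjusted p = 0.240), for Zfp868 -0.32 ± 0.10 (adjusted p = 0.0652) and for Crnkl1 -0.11 ± 0.06 (interval -0.23 to 0.02, adjusted p = 0.288).

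Zfp868 lay close to the threshold. It passed under quantile normalization (adjusted p = 0.0473), in a fit of the compared groups alone (0.0288), with array weights (0.00852), without control array 1 (0.0363) and without QKO 4 (0.0178). The Myc KO arrays of 5 of 6 members lay wholly below the control arrays, against 11.8% of all genes. Adat2 met this only narrowly, its highest Myc KO and lowest control signals both rounding to 8.98. The count takes 1 probe set a gene. Shoc2 on 1425845_a_at, Crnkl1 on 1420849_at and Bmp2k on 1421103_at overlapped control in Myc KO, while Bmp2k on 1437419_at did not. The control arrays were among those used to choose the members as high. The actin 3′ minus 5′ log2 difference, a sign of RNA length, was 0.307 to 0.438 in control and 0.183 to 0.219 in Myc KO arrays. In E2f TKO arrays it was 0.255 to 0.780, highest in the library labelled 2, and in QKO arrays 0.191 to 0.310. Its part in these differences was not tested.

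Whether Myc loss added to E2f loss was read from QKO against E2f TKO. Bmp2k, Crnkl1 and Shoc2 were lower in QKO, which makes 3 of 6 members past the test, beside 7.95% of all genes called lower. Both groups' means took part in the choice of members, each against control, so nothing is read from this count. The p-values of this comparison are likewise given as a description. Bmp2k fell by 0.56 ± 0.08 (limma adjusted p = 0.000216, n = 5 and 5), with no overlap. Crnkl1 fell by 0.21 ± 0.05 (adjusted p = 0.0115), also with no overlap. The share of all genes without overlap between these groups was not counted. Shoc2 fell by 0.35 ± 0.11 (adjusted p = 0.0397), with overlapping arrays.

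These calls differed in how they held. Bmp2k passed under every alternative run. Crnkl1 did not pass without the libraries labelled E2f TKO 2 and 5 (adjusted p = 0.0642), nor in a fit of the compared groups alone (0.0621) or with its probe sets averaged (0.0700). Shoc2 did not pass without E2f TKO 3 (0.101) or 4 (0.0781), or without QKO 1 (0.103), 2 (0.0763) or 3 (0.0829), under quantile normalization (0.0865), with groups alone (0.0869), or with its probe sets averaged (0.255). On probe set 1425845_a_at the QKO minus E2f TKO difference was 0.09 ± 0.08 (adjusted p = 0.449). On the other Bmp2k probe sets it was -0.19 ± 0.12 (0.294) and -0.41 ± 0.10 (0.0107), and on 1420849_at of Crnkl1 it was -0.15 ± 0.10 (0.319).

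The other members did not pass. Adat2 differed by -0.24 ± 0.10 (adjusted p = 0.0965) and Zfp868 by -0.26 ± 0.09 (adjusted p = 0.0616). Ocel1 went the other way, at 0.39 ± 0.14 (adjusted p = 0.0620, interval 0.10 to 0.68). Adat2 passed without E2f TKO 1 (0.00847) and with array weights (0.0254). Zfp868 passed without QKO 4 (0.00445), under quantile normalization (0.0164) and with array weights (0.0224). Ocel1 passed, upward, without E2f TKO 1 (0.0425) or QKO 5 (0.0214).

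The interaction asks whether the QKO value departs from the sum of both log2 differences. It passed in 0 of 6 members, beside 0.0550% of all genes (limma), and at an unadjusted p under 0.05 in 2. Of its 4 groups, 3 took part in the choice of members, so the count is a description. Shoc2 departed by 0.41 ± 0.17 (interval 0.06 to 0.76, adjusted p = 0.718) and Bmp2k by -0.27 ± 0.12 (interval -0.52 to -0.03, adjusted p = 0.734). For Ocel1 the departure was 0.35 ± 0.21 (interval -0.08 to 0.79, adjusted p = 0.859).

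Few partners of the 6 gene products passed the test in E2f TKO. Of 111 measured genes in 7 lists of partners and pathway genes, 1 was higher and 0 were lower at an adjusted p under 0.05 (limma; 7 were lower at an unadjusted p under 0.05), against 2.90% of all genes in either direction, with a median log2 difference of 0.003 beside -0.004 over all genes. Without the libraries labelled E2f TKO 2 and 5, 3 were higher and 4 lower, or 6.31% against 7.27% of all genes. In Myc KO 7 were higher and 12 lower, with a median of -0.07 beside 0.02, against 8.31% called. In QKO 12 were higher and 23 lower, with a median of -0.11 beside 0.03, against 26.9% called. Of all 18193 genes, 653 were higher and 858 lower in Myc KO, and 2602 higher and 2286 lower in QKO. The counts by list that follow are a description, and no list was tested as a set.

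In the SHOC2-RAS-ERK list, 3 of 14 measured genes were higher and 4 lower in QKO, and in E2f TKO the differences ran from -0.14 to 0.11. Ppp1cb, a catalytic subunit of protein phosphatase 1 that pairs with SHOC2, dropped by 0.83 ± 0.12 on loss of Myc (limma, 0.000989 after adjustment) and by 1.10 in QKO (6.88e-06). In the list of 12 feedback targets of ERK, 3 were higher in Myc KO and 5 in QKO, where 1 was lower. Etv4, an ETS factor induced by ERK signalling, rose by 1.01 in Myc KO (adjusted p = 0.000987) and by 1.61 in QKO (1.2e-06).

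Of 27 tRNA modification genes besides Adat2, 7 were lower in Myc KO and 7 in QKO, with medians of -0.28 and -0.18. Trmt1, a tRNA methyltransferase, rose by 0.50 ± 0.13 in E2f TKO (adjusted p = 0.0450) and fell by 0.66 in Myc KO (adjusted p = 0.0073). Its E2f TKO call was lost in 19 alternatives (adjusted p = 0.0523 to 0.477), the fit without the libraries labelled E2f TKO 2 and 5 among them. Trdmt1, which methylates tRNA cytosines, fell by 0.56 in QKO (adjusted p = 0.0029), a call lost with its probe sets averaged (0.0516).

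Of 17 genes of Numb-associated kinases and the AP2 adaptor, 2 were higher in Myc KO, and 3 were higher and 2 lower in QKO. Among those higher in Myc KO, Aak1, the relative of Bmp2k, rose by 0.40, a call lost with its probe sets averaged (adjusted p = 0.376) and without Myc KO 2 (0.0595). Cltc, the clathrin heavy chain, fell by 0.26 in QKO (adjusted p = 0.00155). Of 10 measured genes of the occludin and ELL family, 1 was higher and 2 lower in QKO, and Tjp1, a scaffold of tight junctions, fell by 0.69 (adjusted p = 8.37e-05). Of 10 genes of KRAB repression, 1 was lower in Myc KO and in QKO. It was Cbx1, a heterochromatin protein, at -0.73 (adjusted p = 0.0131) and -0.98, and with suffixed probe sets left out it read 0.04 in Myc KO (adjusted p = 0.875) and lost its QKO call (0.862).

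Of 21 Prp19 complex and spliceosome genes besides Crnkl1, 6 were lower in QKO, with a median of -0.19, and 1 in Myc KO. None was higher in either, and of all genes 26.9% were called in QKO and 8.31% in Myc KO. Isy1, a partner of CRNKL1 in the activated spliceosome, fell by 0.60 in QKO (adjusted p = 0.000355). Prpf19, the ubiquitin ligase that names the complex, fell by 0.51 in Myc KO, and this call was lost in 9 alternatives (adjusted p = 0.0519 to 0.768).

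For comparison, 5 of 23 classic E2F targets were higher and 3 lower in E2f TKO, or 34.8% against 2.90% of all genes. Without the libraries labelled E2f TKO 2 and 5, 6 were higher and 5 lower, or 47.8% against 7.27%. In QKO 12 were higher and 5 lower, or 73.9% against 26.9%, and in Myc KO 1 was higher, or 4.35% against 8.31%. In E2f TKO, Cdkn2c, which encodes the CDK inhibitor p18, fell by 3.27 (limma adjusted p = 6.3e-11). E2f7, an E2F repressor, fell by 1.23 there (0.0103, and 0.105 with the compared groups alone). Cdt1 and Cdc6, which load the replicative helicase, rose by 0.86 (0.000947) and 0.93 (0.00621). The count over all lists with these targets, 9 of 134 in E2f TKO, was 4 without control array 1 or 3, 5 without control array 2 or E2f TKO 3, and 18 without the libraries labelled E2f TKO 2 and 5. In Myc KO it was 20, and 12 without control array 1, 10 without 2 and 8 without 4, then 9, 7 and 12 without Myc KO 1, 2 and 3.

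**Figure D4:**
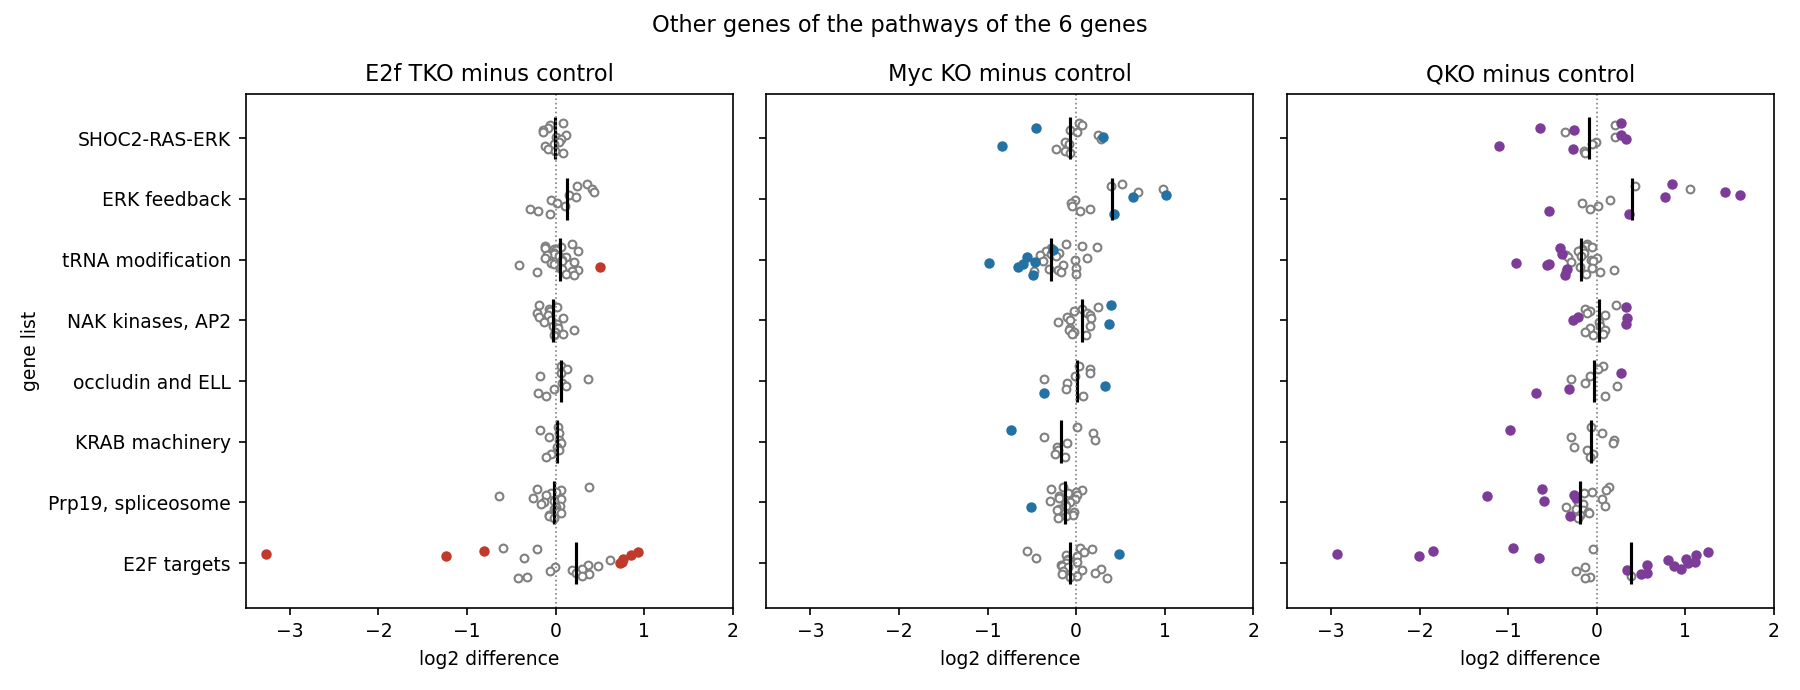
Log2 difference from control of each gene in the partner lists in E2f TKO, Myc KO and QKO, with filled points at an adjusted p under 0.05 (limma), open points otherwise, and black ticks at the list medians. The members are left out, and in E2f TKO 1 of the 111 partner genes is past the test outside the E2F targets.

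The genes next to the members showed whether a wider stretch of chromosome moved. Within 1 Mb of the 6 genes, a window chosen after values had been seen, 135 other genes were measured. In E2f TKO 8 were higher and 5 lower, or 9.63% against 2.90% of all genes. Shares were 12.6% against 8.31% in Myc KO and 39.3% against 26.9% in QKO. Without the libraries labelled E2f TKO 2 and 5 the E2f TKO count was 13 higher and 13 lower, or 19.3% against 7.27%. No test was made of these shares.

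Most of the E2f TKO calls were near Ocel1 and Zfp868, with 11 of 96 neighbours (11.5%), against 2 of 39 (5.13%) near the other 4 members. This split was not seen without the libraries labelled E2f TKO 2 and 5, where it was 18 of 96 (18.8%) against 8 of 39 (20.5%). Near Ocel1, B3gnt3, a glycosyltransferase gene, rose by 1.55 (limma adjusted p = 1.42e-07), Colgalt1, a collagen glycosyltransferase gene, rose by 0.84 (0.000191) and Fam32a fell by 0.54 (0.000947, and 0.0567 with its probe sets averaged). Rex1bd, within 1 Mb of both, fell by 0.84 (0.000156). Next to Zfp868, Gm10033 rose by 1.07 (0.000698) and Zfp963, another zinc finger gene, by 0.70 (0.000598). Each of these neighbours also passed without the libraries labelled E2f TKO 2 and 5. Their differences were then 1.65 for B3gnt3, 0.81 for Colgalt1, -0.47 for Fam32a, -0.98 for Rex1bd, 0.94 for Gm10033 and 0.63 for Zfp963. In QKO each kept the sign it had in E2f TKO, while in Myc KO Colgalt1 went the other way.

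The genes adjoining the other members read differently. Bbip1, beside Shoc2 and known for a subunit of the BBSome of cilia, differed by -0.49 in E2f TKO (adjusted p = 0.212) and fell by 0.76 in Myc KO (0.0232) and 0.80 in QKO (0.00432). Pex3, a peroxisome assembly gene beside Adat2, differed by 0.01 in E2f TKO (0.981). Naa20, beside Crnkl1, differed by -0.06 in E2f TKO (0.819) and fell by 0.32 in QKO (0.00713). Anxa3, an annexin gene beside Bmp2k, rose by 1.5 in QKO (0.000164), opposite to Bmp2k.

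**Figure D5:**
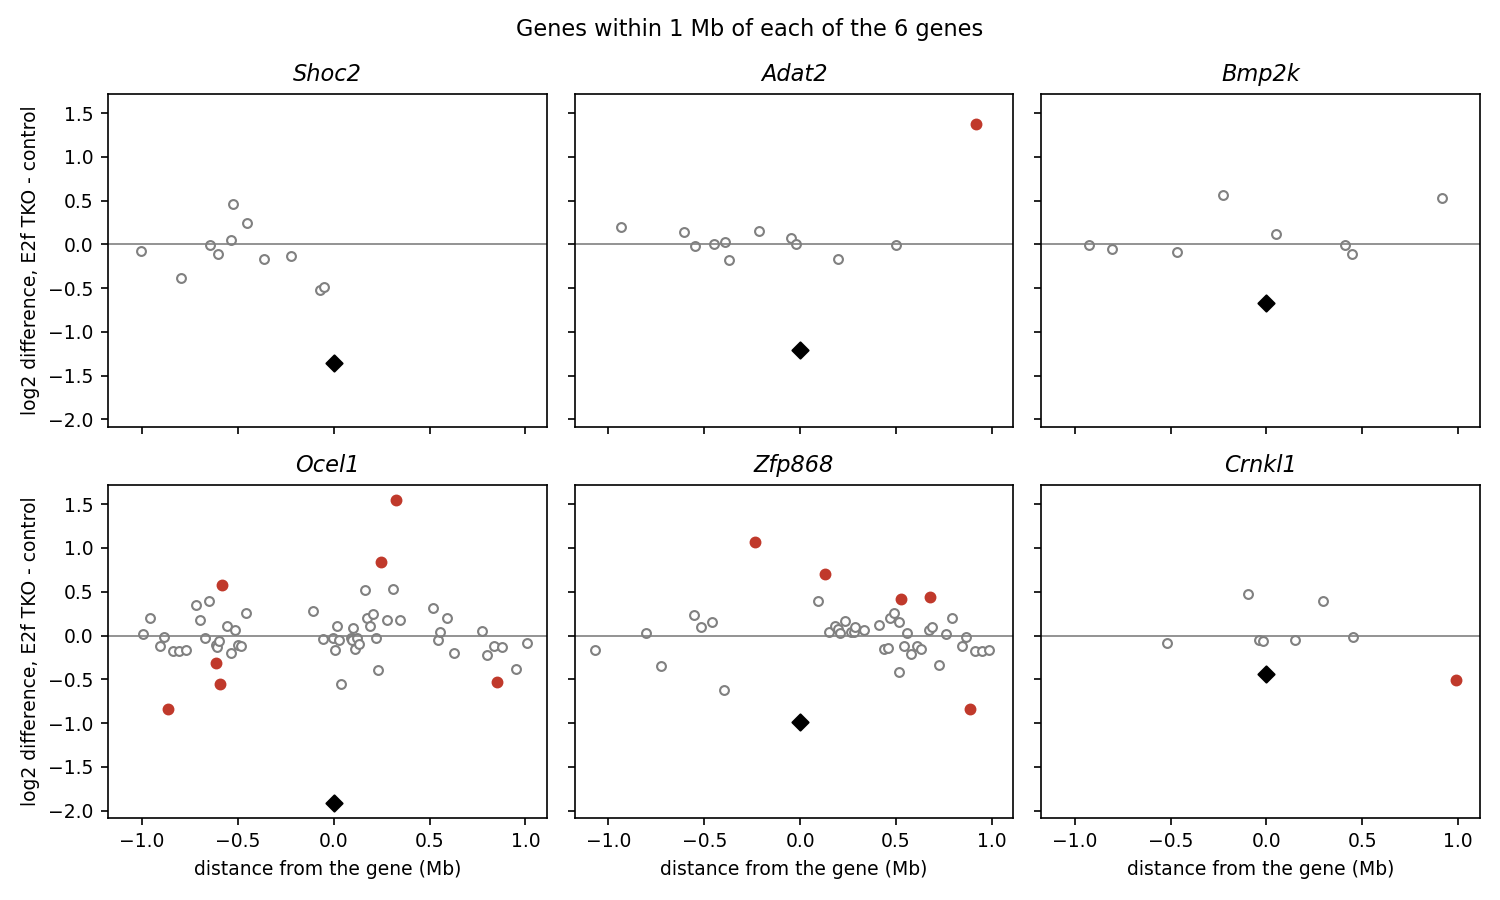
Log2 difference of E2f TKO from control for measured genes within 1 Mb of each member, against the distance from the member in Mb, with the member as a diamond, filled points at an adjusted p under 0.05 (limma) and open points otherwise. Filled points of both signs lie near Ocel1 and Zfp868, and most neighbours of the other 4 members are open.

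The members followed one another across the 18 arrays. Pearson's r over the 15 pairs ran from 0.741 to 0.966 with a median of 0.895, values that the choice of members fixes in part, since the arrays share the genotype groups. The genes most like each member, as the 2 highest r among all genes, were named as a description. They were Fam32a (0.939) and Zfp868 (0.938) for Shoc2, and Commd2 (0.962) and BC037704 (0.949) for Adat2. For Bmp2k they were Ccdc90b (0.9385) and Ttc17 (0.9384), and for Ocel1 Cdkn2c (0.959) and Rbks, a ribokinase gene (0.939). Zfp868 was closest to Crnkl1 (0.966) and Fam32a (0.960), and Crnkl1 to Zfp868 and to Adat2 (0.949). The E2f TKO differences of these other genes were -0.54 for Fam32a, -0.80 for Commd2, -0.57 for BC037704, -0.31 for Ccdc90b, -0.31 for Ttc17, -3.27 for Cdkn2c and -0.71 for Rbks.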

How the data were processed

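The authors deposited log2 signals for 45101 probe sets of biotin-labelled arrays, with the log2 scale inferred from their range of 2.29 to 14.81. No source used here gives the normalization or the probe summary, and the values were taken as deposited. The labels name no batch. Array medians differed by 0.126 and split by Myc label. They were 6.146 to 6.165 in control and 6.138 to 6.189 in E2f TKO arrays. In Myc KO arrays they were 6.217 to 6.261 and in QKO arrays 6.231 to 6.263. Under quantile normalization the Bmp2k adjusted p in Myc KO was 0.127 (limma). The part of this shift in the Myc comparisons was not otherwise tested. Genes were assigned to probe sets from GEO's platform annotation: 34945 had 1 symbol, 932 several and 9160 none. Gene names, positions and promoters are from RefSeq tables of GRCm38.p6, which held 18032 of 18193 genes and all 6 members.

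Groups were taken from the titles. One limma 3.58.1 fit (lmFit, contrasts.fit, eBayes; R 4.3.3) of 4 group means to 18 arrays gave differences, standard errors and two-sided p-values, Benjamini-Hochberg adjusted over 18193 genes, with a threshold of 0.05. Other probe sets were adjusted over all those with 1 symbol. For the members, 3 comparisons were tested: Myc KO against control, QKO against E2f TKO, and the interaction. The p-values for QKO against E2f TKO are a description, since both groups took part in the choice. The fit was tested on simulated data. The members and lists were chosen with earlier results of these data known. Genes named in the lists are the member with the smallest p past the test in a comparison (4 for E2F targets). The neighbours named are those with the smallest p in E2f TKO and the adjoining genes, picked after their values were seen.

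Each result was recomputed with quantile normalization, with genes above the median level alone, with the probe sets of a gene averaged, without probe sets of suffix _s_at, _x_at or _a_at, with the compared groups alone, with a replicate block, with eBayes trended and robust, with array weights, and without each array in turn. Leaving out the libraries labelled E2f TKO 2 and 5 was chosen after seeing the data. No filter on dim probe sets and no detection calls were used, so the number of arrays and the background limit the precision. Plots used matplotlib 3.10.9 (Python 3.11.15).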

Additional observations from a re-analysis of the deposited data

Results flagged for a closer look

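Zfp868 in Myc KO crypts had 1 array apart from the others, in a group of narrow spread (SD 0.0455). Array 2 read a log2 signal of 7.366, the lowest of its group, and the nearest of the other arrays read 7.455. Its gap was 0.942 of the range of the 4 arrays, above Dixon's 95% value. Chance marks about 1 in 20 groups, and of 60 groups examined 1 was marked.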

How the results depend on the processing

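Members past the test in Myc KO numbered 2, 3 with groups alone or array weights, and 1 with probe sets lacking a suffix, with a trended and robust eBayes or with the replicate block, and 1 to 2 on leaving out an array. In QKO against E2f TKO they numbered 3, 1 with the mean of probe sets or the compared groups alone, 5 with array weights, and 2 to 5 on leaving out an array. The 12 member differences from control in E2f TKO and QKO stayed below 0, or 10 of 10 with only genes above the median level, where Zfp868 was not tested. Over 134 list genes the 9 calls in E2f TKO became 5 with groups alone, 22 with array weights, 18 without the libraries labelled E2f TKO 2 and 5, and 4 to 13 on leaving out an array. The 20 in Myc KO became 12 with the mean of probe sets, 40 with groups alone, 43 with array weights, and 7 to 26. The 52 in QKO were 43 to 61 on leaving out an array. Cbx1 in Myc KO read 0.0411 with probe sets lacking a suffix. The cause of these shifts was not tested. Over all genes calls ranged from 253 to 1356 in E2f TKO (527), 640 to 3427 in Myc KO (1511) and 1549 to 4288 in QKO against E2f TKO (3100). Of 25 same-numbered pairs 13 correlated over 0.1 (-0.156 to 0.352, median 0.148), against 27 of 96 other pairs (median -0.0426). Same-numbered arrays thus tended to be more alike, and a shared batch by number is not settled here. The labels do not say that the numbers pair the arrays, so the main fit did not use them. The replicate block took the Bmp2k Myc KO adjusted p (limma) from 0.0494 to 0.0642. The interaction was not run with groups alone. Signals near the array medians limit Zfp868 and the dim probe sets of Bmp2k and Crnkl1.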
